A study of Mus musculus with 12 samples.

Results

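The route of cholesterol synthesis and its control, 28 genes in all, was followed step by step through 4 groups of sorted mouse brain cells. The genes were taken by name: the enzymes from acetyl-CoA supply to the last reduction of the sterol ring, the sterol sensing proteins, and 1 sterol carrier. All 28 were found among the 55401 gene records of the deposited count table, and all 28 passed the filter on low counts that left 12613 genes for testing.

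The mice carried CD51-Flp and Rosa-CAG-FSF-tdTomato, so that a cell that makes, or once made, Flp from the CD51 driver becomes tdTomato positive. CD51 is integrin alpha-v, the product of Itgav. Cells were sorted from dissected cortex and hippocampus as tdTomato and GFP double positive (CD51+ astrocytes) or GFP positive without tdTomato (CD51- astrocytes), with 3 libraries in each of the 4 groups. What drives GFP, and the age, sex and number of the mice, are not given in the sources used here. Whether the libraries of a group stem from different animals is not stated, and p-values here reflect only how far these libraries scatter, which may be technical.

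Counted read pairs came to 4351897 to 12847183 a library, with 12113 to 15425 genes detected. The share of counts from mitochondrial genes was 36.5%, 47.7% and 71.1% in cortex CD51+ and 22.5%, 23.6% and 38.6% in cortex CD51-, and it was 49.9% to 53.3% in hippocampus CD51+ against 20.2% to 29.4% in hippocampus CD51-. Cortex CD51+ replicate 3 stood apart, with 58.4% of its counts in mitochondrial ribosomal RNA against 1.04% to 3.54% in the other libraries. The library names carry G where the title says CD51+ and GT where it says CD51-, and the sources do not spell these letters out. If names and titles were at odds, every CD51 difference given here would change sign. The level of Itgav itself did not separate the classes. It was 337, 537 and 879 counts per 1000000 (CPM) in cortex CD51+ and 358, 248 and 326 CPM in cortex CD51-. In the hippocampus it was 373, 323 and 412 CPM in CD51+ against 223, 565 and 356 CPM in CD51-, and its adjusted p from edgeR was 0.269 in the cortex and 0.984 in the hippocampus.

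Cholesterol is built from acetyl-CoA through mevalonate, the isoprenoid diphosphates and squalene, which is closed into lanosterol, the first sterol. Lanosterol is then trimmed and rearranged to cholesterol by demethylases, isomerases and reductases of the endoplasmic reticulum. When membrane sterol is low, SCAP escorts the SREBP transcription factors to the Golgi for cleavage, and INSIG proteins hold them back when sterol is plentiful. The brain makes its own cholesterol, since plasma lipoproteins do not cross the blood-brain barrier. Oligodendrocytes use it for myelin, and astrocytes export it on lipoproteins that carry apolipoprotein E.

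In the cortex, 7 of the 28 genes were higher in CD51+ than in CD51- cells by edgeR's quasi-likelihood test at a Benjamini-Hochberg adjusted p under 0.05, and 0 were lower. The 7 were Hmgcs1, Fdft1, Sqle, Lss, Msmo1, Nsdhl and Srebf1. Among all genes tested, 5.05% were called higher and 6.27% lower. The median log2 fold change of the 28 genes was 2.58, against -0.03 over all genes tested, and 25 of the 28 lay above 0. At an unadjusted p under 0.05 the count was 12 higher and 2 lower, beside 14.8% and 17.1% of all genes. DESeq2 called 13 higher and 0 lower (11.7% and 13.9% of all genes), and limma-voom 12 and 0 (8.55% and 8.6%). Beyond the 7, both called Acss2, Hsd17b7, Mvk, Sc5d and Tm7sf2, and DESeq2 also Insig2. Fewer cells of a type and less RNA per cell cannot be told apart in such sorted bulk libraries. Without cortex CD51+ replicate 3, the number called higher was 3, where 391 of all 14354 genes tested were. Without cortex CD51+ replicate 1 it was 4, where 459 of 14336 were. With all libraries 637 of 12613 were called higher.

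In the hippocampus, 0 of the 28 genes passed the same test in either direction, where 0.618% of all genes tested were called higher and 2.7% lower. At an unadjusted p under 0.05, 3 were higher and 1 was lower, beside 5.81% and 13.3% of all genes. DESeq2 called 2 higher (Cyp51 and Fdft1) and 1 lower (Lbr), beside 3.0% and 8.33% of all genes, and limma-voom 1 higher (Fdft1) and 1 lower (Lbr), beside 2.05% and 4.97%. The median log2 fold change was 0.83, against -0.22 over all genes tested, with 19 of 28 genes above 0 and 9 below.

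Averaged over both regions, 10 of the 28 genes were higher in CD51+ and 0 lower, with 8.87% and 13.9% of all genes tested called in those directions. Acss2, Mvk and Cyp51 joined the 7 genes of the cortex. Of these 10, Nsdhl alone lay below 0 in the hippocampus (log2 difference -0.78 ± 1.34), so its averaged call came from the cortex. DESeq2 and limma-voom each called 12 higher and 0 lower, beside 12.4% and 16.8% of all genes with DESeq2 and 11.2% and 13.1% with limma-voom. Both added Sc5d and Srebf2. At an unadjusted p under 0.05 there were 13 and 2, beside 15.1% and 20.1%. The median was 1.71, against -0.14 over all genes tested. This average uses the same libraries as the 2 regional comparisons and is no separate evidence.

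**Figure D1:**
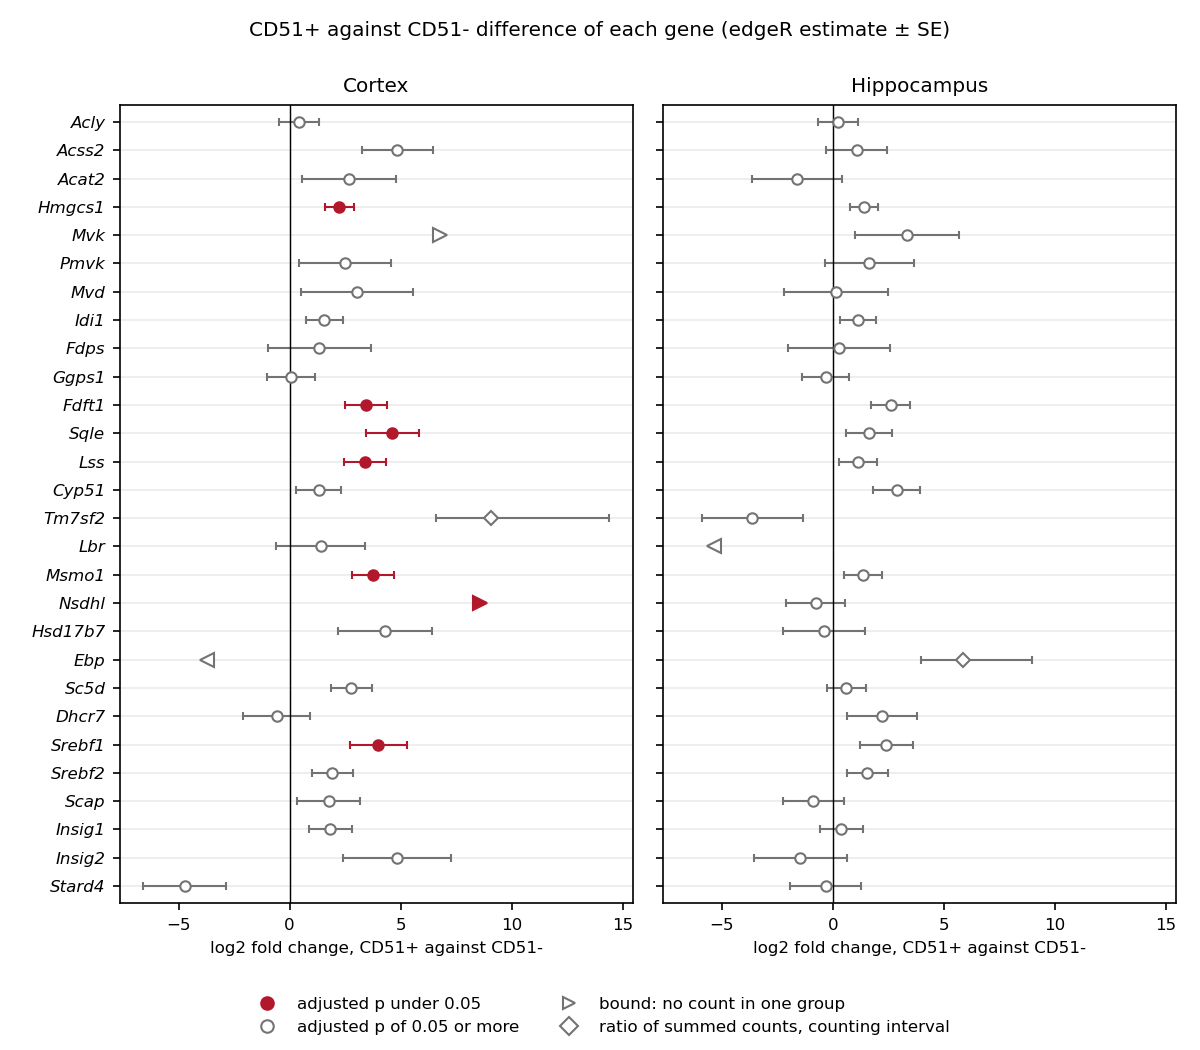
Log2 fold change of each of the 28 genes, CD51+ minus CD51-, in cortex and hippocampus, with bars for the standard error of the edgeR fit; genes with a group at 0 counts are drawn at their bound or counting ratio. The cortex points lie above 0 for 25 of 28 genes, and the hippocampus points for 19 of 28.

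The sum of the 28 genes was nearly the same in the 3 libraries of each group. It was 2278, 2385 and 2279 CPM in cortex CD51+ (mean 2314 ± 61.6, SD, n = 3) and 605.5, 552.4 and 602.2 CPM in cortex CD51- (586.7 ± 29.7, SD, n = 3). In the hippocampus it was 1406, 1458 and 1596 CPM in CD51+ (1487 ± 98.1, SD, n = 3) and 713.8, 704.8 and 620.6 CPM in CD51- (679.7 ± 51.4, SD, n = 3). Within each region the CD51+ and CD51- libraries did not overlap. These CPM values rest on TMM library sizes, a scaling by the bulk of genes, and the other scalings that follow were chosen after seeing the data. Per 1000000 of all counts with no such factor, cortex CD51+ held 2466, 1910 and 874.3 and cortex CD51- 840.5, 647.2 and 582.0, so that the 2 classes still did not overlap but cortex CD51+ replicate 3 came close to the CD51- libraries. Per 1000000 counts outside mitochondrial genes the 3 cortex CD51+ libraries held 3884, 3648 and 3028, against 1085, 847.0 and 948.5 in cortex CD51-. In the hippocampus, CD51+ held 1408, 1149 and 1285 per 1000000 of all counts (1281 ± 130, SD, n = 3) against 1012, 906.6 and 945.6 in CD51- (954.8 ± 53.3, SD, n = 3), a much smaller difference than on the TMM scale. Outside mitochondrial genes these were 2809, 2403 and 2750 against 1378, 1284 and 1184. The hippocampus classes did not overlap on either scale.

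**Figure D2:**
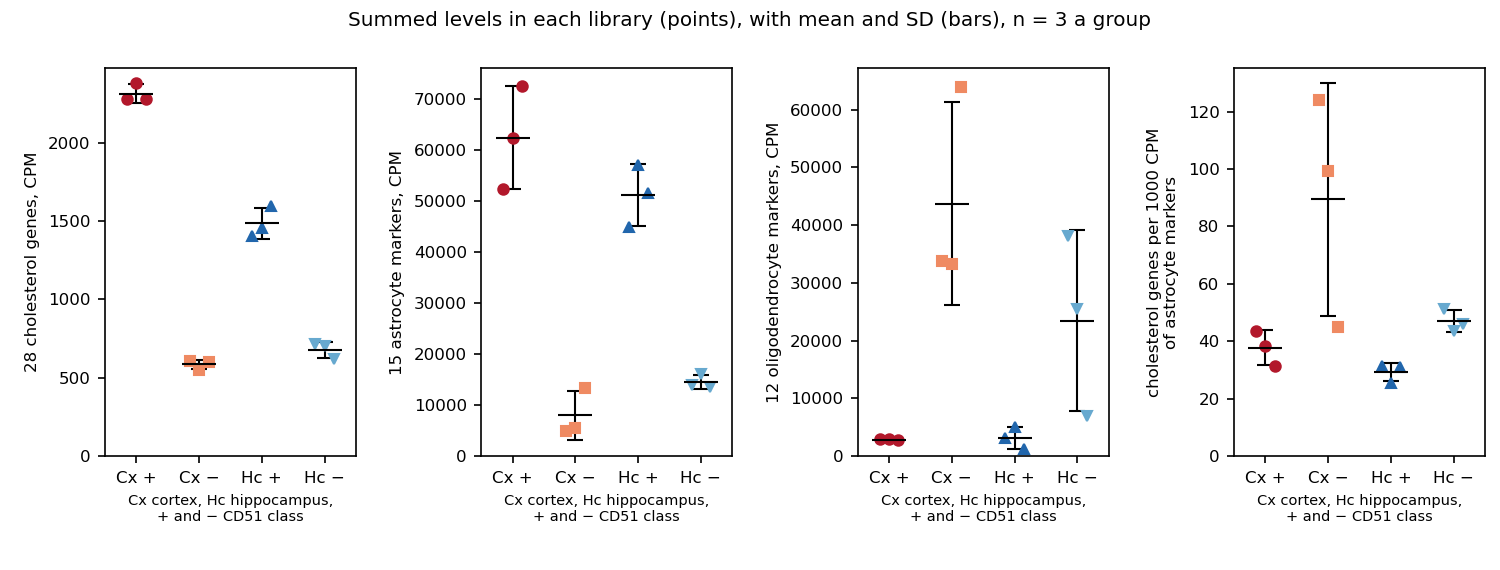
The 4 panels give, for each library (points) with the mean and SD of the 3 libraries of a group (bars), the summed CPM of the 28 genes, of 15 astrocyte markers and of 12 oligodendrocyte markers, and the cholesterol genes per 1000 CPM of astrocyte markers, on linear axes from 0. The summed cholesterol genes lie between 2278 and 2385 CPM in cortex CD51+ and between 552.4 and 605.5 CPM in cortex CD51-, with the hippocampus groups between them, and the last panel puts CD51- above CD51+ in both regions.

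Markers of several cell types moved with the CD51 class. Of 15 astrocyte markers, 12 were higher in CD51+ in the cortex and 9 in the hippocampus, and their sum was 52230 to 72440 CPM in cortex CD51+ against 4880 to 13390 CPM in cortex CD51-. In the hippocampus the astrocyte sum was 44840 to 56960 CPM in CD51+ against 13480 to 16130 CPM in CD51-, and no astrocyte marker was at 0 in any library. Most markers of oligodendrocytes, the other main makers of brain sterol, ran the opposite way. In the cortex 10 of 12 had a log2 difference below 0 and 2 above. In the hippocampus 9 lay below 0 and 3 above. Of the 12, 5 were called lower in CD51+ in the cortex and 2 in the hippocampus. The sum of all 12 was 2781 to 2863 CPM in cortex CD51+ against 33250 to 64020 CPM in cortex CD51-. The hippocampus sums were 1254 to 4973 CPM in CD51+ and 6912 to 38040 CPM in CD51-. In the CD51+ libraries 0 to 4 of the 12 oligodendrocyte markers were at 0, and in the CD51- libraries also 0 to 4, with 4 in hippocampus CD51- replicate 3. Of 12 microglial markers, 7 were lower in cortex CD51+ and 6 in hippocampus CD51+. Their sum was 335.9 to 1004 CPM in cortex CD51+ against 8124 to 11230 CPM in CD51-, and 205.3 to 1573 CPM in hippocampus CD51+ against 5195 to 7571 CPM in CD51-, with 0 to 2 of the 12 at 0 in the CD51+ libraries. All 8 immediate early genes, which respond to tissue dissociation, were lower in cortex CD51+, where they summed to 34.37 to 109.3 CPM against 9406 to 13470 CPM in CD51-. In the hippocampus 6 of the 8 were lower, with sums of 118.4 to 257.3 CPM and 4839 to 10190 CPM. Markers of oligodendrocyte precursors, neurons, endothelium, pericytes and ependyma gave, in the average, 0 of 2, 0 of 6, 1 of 3 (lower), 1 of 2 (higher) and 0 of 4 tested genes called. The part of these markers, and of the mitochondrial share, in the differences of the cholesterol genes was not tested.

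Set against the astrocyte markers, the order of the classes turned. Per 1000 CPM of summed astrocyte markers, the 28 genes held 43.6, 38.3 and 31.5 CPM in cortex CD51+ and 124, 99.2 and 45.0 CPM in cortex CD51-. Hippocampus CD51+ libraries held 31.4, 25.6 and 31.0 CPM, against 51.1, 43.7 and 46.0 CPM in hippocampus CD51-. CD51- was the higher class in both regions without overlap. Per 1000 CPM of astrocyte and oligodendrocyte markers together, the means were 36.1 ± 5.54 and 12.6 ± 4.19 CPM in cortex CD51+ and CD51-, and 27.7 ± 3.63 and 20.4 ± 8.86 CPM in the hippocampus (SD, n = 3 each). On this measure the cortex classes did not overlap. The hippocampus classes did, at 23.55 to 30.24 CPM in CD51+ and 13.73 to 30.44 CPM in CD51-.

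The promoters of 4 genes are shown because these genes were called in the averaged comparison and their RefSeq start lies where the counted gene model also begins or close to it. The sequences are from RefSeq on GRCm38.p6, plus strand, each ending at the base before the gene's start or before the counted gene model. Capitals mark the NF-Y box CCAAT, or ATTGG where it reads on the other strand, and in Hmgcs1 also the sterol element TCACNCCAC. The stretches are chr13:119690101-119690350 for Hmgcs1, chr5:114444069-114444268 for Mvk, chr10:76531488-76531587 for Lss and chrX:72918371-72918520 for Nsdhl.
Hmgcs1: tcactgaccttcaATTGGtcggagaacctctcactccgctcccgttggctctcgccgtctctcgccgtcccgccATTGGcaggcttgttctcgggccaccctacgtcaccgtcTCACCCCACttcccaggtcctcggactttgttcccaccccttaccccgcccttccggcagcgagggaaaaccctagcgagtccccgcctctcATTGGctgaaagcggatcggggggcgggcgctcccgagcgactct
Mvk: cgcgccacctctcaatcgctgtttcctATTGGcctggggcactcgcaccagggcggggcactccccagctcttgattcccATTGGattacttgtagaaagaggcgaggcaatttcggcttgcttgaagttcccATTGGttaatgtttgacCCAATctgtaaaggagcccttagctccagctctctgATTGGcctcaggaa
Lss: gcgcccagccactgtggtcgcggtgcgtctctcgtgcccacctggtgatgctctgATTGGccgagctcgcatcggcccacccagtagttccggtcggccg
Nsdhl: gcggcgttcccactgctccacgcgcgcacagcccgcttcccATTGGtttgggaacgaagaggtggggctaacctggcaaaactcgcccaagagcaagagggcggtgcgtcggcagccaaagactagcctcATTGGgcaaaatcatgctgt

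NF-Y is a trimeric factor that SREBPs are known to work with. The Hmgcs1 stretch holds 3 of its boxes and the sterol element, the Mvk stretch 5 boxes, the Nsdhl stretch 2 and the Lss stretch 1. In that order the stretches are 250, 200, 150 and 100 bases long, so these counts cannot be set against one another. RefSeq promoter windows, 250 bases before to 50 bases after the start, were at hand for 24 of the 28 genes, and none for Fdps, Fdft1, Sqle and Stard4. The motifs were searched on both strands. CCAAT was in the windows of 22 of the 24 genes (91.7%), against 43.2% of 9004 tested genes, 41.1% of 27025 genes and 37.4% of all 32851 windows. Within 100 bases before the start, 18 of the 24 genes (75%) had a box, against 26.1% of the tested genes and 21.6% of all genes. The sterol element was rarer. Its 9 letters TCACNCCAC were in the Hmgcs1 window alone (4.17% of the 24, against 1.4% of tested genes and 1.24% of all windows), and the core ACCCCAC, which overlaps it there, was found for 3 genes, Acat2, Hmgcs1 and Nsdhl, in Nsdhl farther upstream than the stretch shown (12.5%, against 7.71% and 6.21%). The E-box CACGTG, another SREBP sequence, was found for 5 genes, Dhcr7, Hsd17b7, Insig1, Sc5d and Scap (20.8%, against 11.7% and 7.15%). These matches are letters in a window and not measured binding. The boxes were found in windows of genes that were called and of genes that were not.

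**Figure D3:**
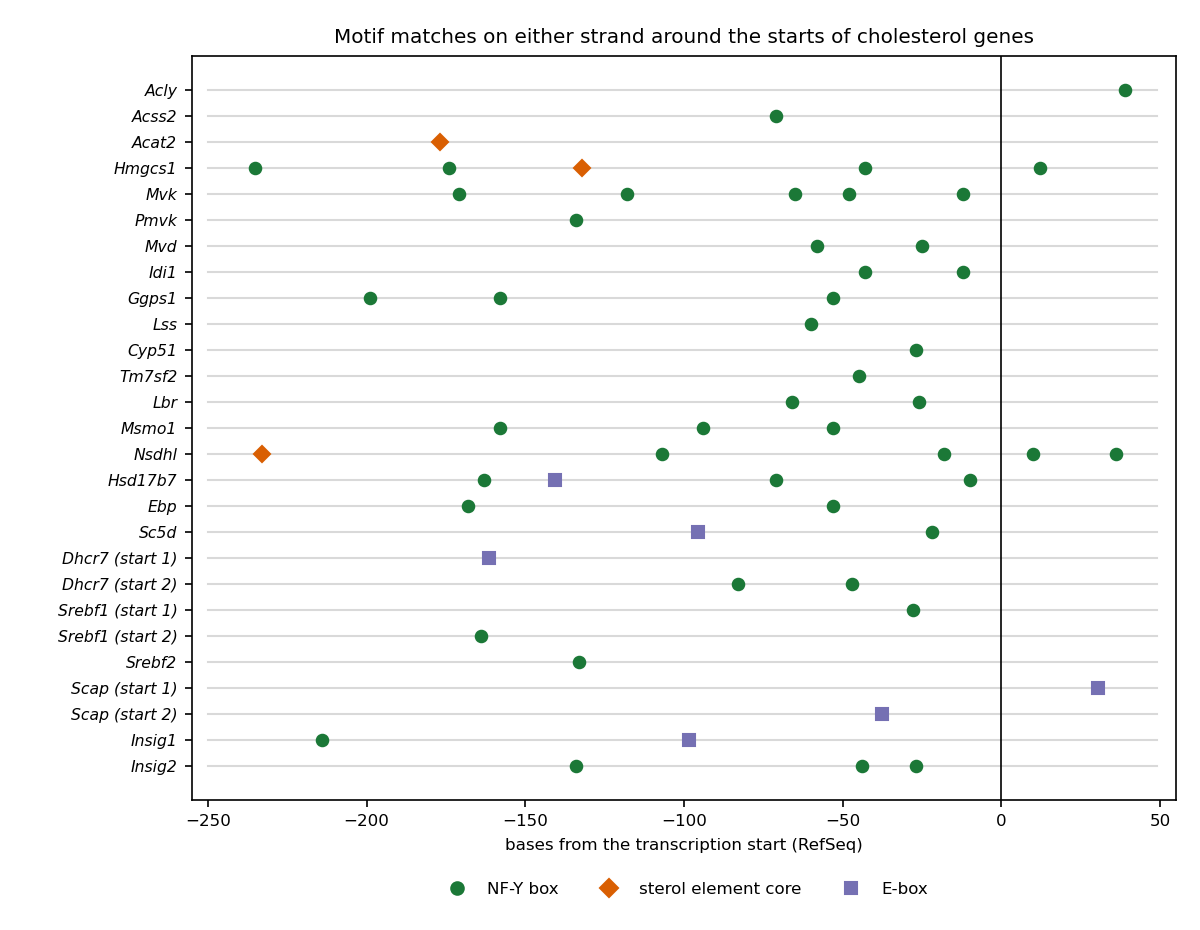
Positions of the searched motifs in the promoter windows of the 24 genes with a RefSeq entry, in bases from the start site (0), 1 line per window with a match, so that genes with several RefSeq starts have several lines. NF-Y boxes stand by 22 of the 24 genes, and 27 of the 46 boxes lie within 100 bases before the start.

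The first steps supply acetyl-CoA and pair it. Gene positions are those of the count table, on mm10. Acss2 (ENSMUSG00000027605.18, chr2:155517948-155585724, plus strand) makes acetyl-CoA from acetate. Its level was 37.4, 54.5 and 43.8 CPM in cortex CD51+ and 3.46, 0.12 and 1.02 CPM in cortex CD51-. The hippocampus levels were 129, 27.4 and 4.36 CPM for CD51+ against 16.6, 1.49 and 59.0 CPM for CD51-. The cortex classes did not overlap and the hippocampus classes did. The log2 difference was 4.86 ± 1.60 (SE) in the cortex, with an adjusted p of 0.0507 from edgeR that missed the threshold, and 1.06 ± 1.37 in the hippocampus (adjusted p 0.772). The average, 2.96 ± 1.03, passed at 0.0417 but was lost in 8 of 20 alternatives, each with 1 library left out: cortex CD51+ replicate 1, 2 or 3, cortex CD51- replicate 2 or 3, hippocampus CD51+ replicate 1 or hippocampus CD51- replicate 1 or 2. The adjusted p over all alternatives ran from 0.00532 to 0.198. Acly, which makes acetyl-CoA from citrate, was even across the 12 libraries, at 30.1 to 67.7 CPM, and its adjusted p from edgeR was 0.804 in the cortex and 0.941 in the hippocampus. Acat2, the cytosolic thiolase, ranged from 0 to 47.0 CPM and was not called (adjusted p 0.421 and 0.765).

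Hmgcs1 (ENSMUSG00000093930.2, chr13:119690379-119708260, plus strand), the HMG-CoA synthase of the cytosol, led the mevalonate steps. It was at 311, 253 and 537 CPM in cortex CD51+ and at 94.2, 45.3 and 94.5 CPM in cortex CD51-. Hippocampus values came to 186, 252 and 171 CPM for CD51+ and 85.9, 87.3 and 60.4 CPM for CD51-. All 6 CD51+ libraries lay above all 6 CD51- libraries. Between the classes the log2 difference was 2.23 ± 0.64 in the cortex (edgeR, adjusted p 0.0279), 1.38 ± 0.63 in the hippocampus (0.228) and 1.81 ± 0.45 in the average (0.00638). The cortex call of Hmgcs1 was lost in 6 of 15 alternatives, with an adjusted p of 0.123 without cortex CD51+ replicate 3, 0.0571 without cortex CD51+ replicate 1, and 0.0604 and 0.0975 without cortex CD51- replicate 1 or 2. The Hmgcs1 exons overlap those of Gm48342 over 12.1% of their bases, and the counting did not use strand, so read pairs from those bases may be left out or misassigned.

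Mvk (ENSMUSG00000041939.14, chr5:114444269-114460591, plus strand), mevalonate kinase, was at 15.1, 17.4 and 0.609 CPM in cortex CD51+ and at 0 in all 3 cortex CD51- libraries. From the hippocampus, CD51+ cells gave 34.4, 21.5 and 1.51 CPM, while CD51- cells gave 0, 0 and 5.61 CPM. The cortex classes did not overlap, and the third replicate of each CD51+ group was far below the other two. Against a floor of 3 counts over the cortex CD51- group, Mvk was at least 111-fold higher in cortex CD51+, with an adjusted p from edgeR of 0.0535, while the average over both regions passed at 0.0217. Pmvk and Mvd, the kinase and decarboxylase that finish the mevalonate steps, were low and uneven. Pmvk ranged from 0 to 36.8 CPM (adjusted p 0.437 in the cortex and 0.758 in the hippocampus) and Mvd from 0 to 35.9 CPM (0.444 and 0.989).

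The isoprenoid steps held no call in either region. Idi1, the isopentenyl diphosphate isomerase, was at 166, 193 and 35.1 CPM in cortex CD51+ and 29.8, 60.5 and 43.6 CPM in cortex CD51-, and these overlapped through cortex CD51+ replicate 3. For hippocampus CD51+ the level was 73.6, 75.0 and 112 CPM, compared with 20.9, 56.2 and 41.9 CPM for CD51-, without overlap. Its average log2 difference was 1.34 ± 0.58 (edgeR, adjusted p 0.0992). Ggps1, which leads the isoprenoids away from sterol towards protein prenylation, ranged from 1.2 to 214 CPM, both ends in cortex CD51-, with adjusted p of 0.989 and 0.925. Fdps, the farnesyl diphosphate synthase, was at most 3.86 CPM in any library. The exons of Fdps overlap those of Gm43738 on the same strand over 26.7% of their bases, so its counts may be understated, and its level should be read as uncertain.

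All 3 genes of the squalene steps were higher in CD51+ in the cortex. Fdft1 (ENSMUSG00000021273.11, chr14:63145150-63179578, minus strand), squalene synthase, commits farnesyl diphosphate to sterol. It was at 240.0, 418 and 173 CPM in cortex CD51+ and at 59.4, 1.8 and 15 CPM in cortex CD51-. Hippocampus CD51+ libraries held 125, 285 and 487 CPM, against 36.3, 35.8 and 76.9 CPM in hippocampus CD51-. All 6 CD51+ libraries were above all 6 CD51- libraries. On the log2 scale the classes differed by 3.44 ± 0.93 in the cortex (edgeR, adjusted p 0.0195), 2.59 ± 0.90 in the hippocampus (0.118) and 3.02 ± 0.65 in the average (0.00203). The cortex call was lost without cortex CD51+ replicate 2 (0.0566), and with only the 6 hippocampus libraries in the fit Fdft1 passed there as well. Its exons overlap those of Ctsb, a lysosomal protease gene, over 18.8% of their bases.

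Sqle (ENSMUSG00000022351.14, chr15:59315077-59331192, plus strand), squalene epoxidase, carries out the first oxygenation of the route. It was at 216, 293 and 106 CPM in cortex CD51+ against 17.6, 0.24 and 7.15 CPM in cortex CD51-, well apart. The hippocampus levels were 81.0, 14.2 and 98.3 CPM for CD51+ against 7.55, 40.8 and 14.5 CPM for CD51-, which overlapped. The log2 difference was 4.62 ± 1.2 in the cortex (edgeR, adjusted p 0.0152) and 3.12 ± 0.79 in the average (0.00731), and the hippocampus adjusted p was 0.46.

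Lss (ENSMUSG00000033105.12, chr10:76531588-76557138, plus strand), lanosterol synthase, closes the ring. It was at 156, 139 and 166 CPM in cortex CD51+ and at 5.4, 29.5 and 8.32 CPM in cortex CD51-. Hippocampus values came to 36.2, 122 and 95.2 CPM for CD51+ and 57.0, 47.7 and 12.0 CPM for CD51-. The cortex classes were far apart, and hippocampus CD51+ replicate 1 fell among the CD51- libraries. Between the classes the log2 difference was 3.41 ± 0.95 in the cortex (edgeR, adjusted p 0.0224), 1.12 ± 0.87 in the hippocampus (0.566) and 2.27 ± 0.64 in the average (0.0141). The cortex call was lost without cortex CD51+ replicate 1 or 3 or cortex CD51- replicate 1 or 3, at adjusted p of 0.0515, 0.0641, 0.0826 and 0.0664. Summed, the 3 squalene genes held 635.6 ± 203 CPM in cortex CD51+, 48.12 ± 29.7 in cortex CD51-, 448.1 ± 220 in hippocampus CD51+ and 109.5 ± 12.8 in hippocampus CD51- (SD, n = 3 each).

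**Figure D4:**
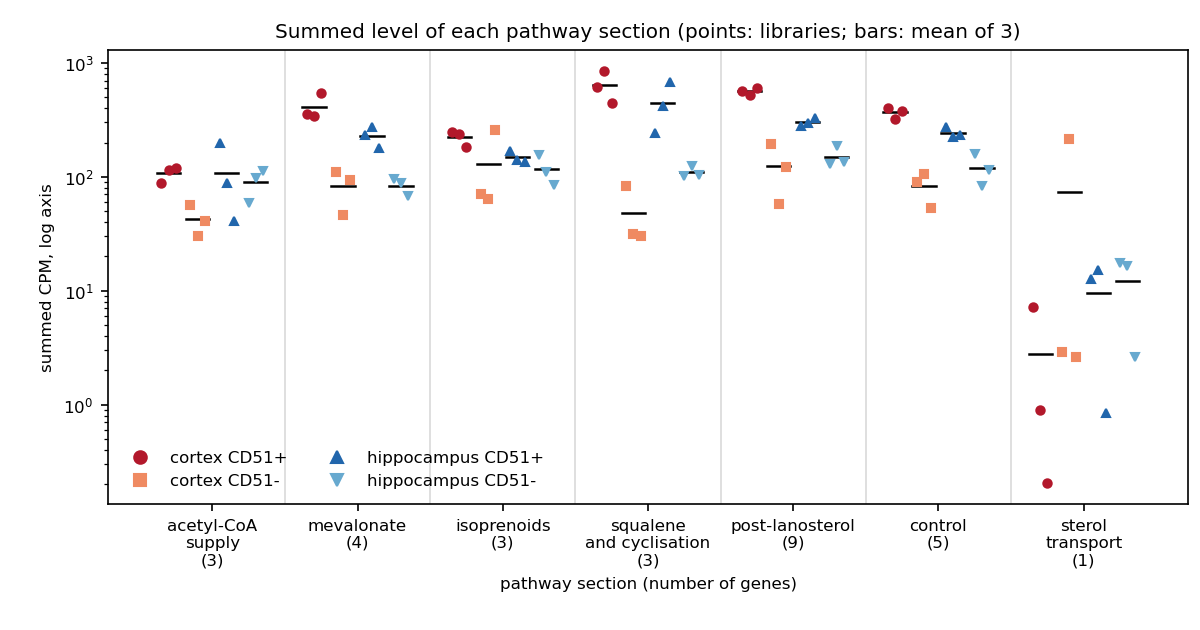
Summed CPM of the genes of each section of the route in each library, by group (points, with bars for the mean of 3), on a log axis. The squalene section lies at 444.6 to 849.4 CPM in cortex CD51+ and at 30.49 to 82.35 CPM in cortex CD51-.

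After lanosterol, 2 of 9 genes were higher in the cortex and 3 in the average, where 5.05% and 8.87% of all genes were. Cyp51 (ENSMUSG00000001467.5, chr5:4081145-4104746, minus strand) is the first demethylase to act on lanosterol. It was at 152, 101 and 70.6 CPM in cortex CD51+ and 74.4, 4.07 and 52.2 CPM in cortex CD51-, which overlapped. From the hippocampus, CD51+ cells gave 55.5, 72.3 and 148 CPM, while CD51- cells gave 27.5, 3.06 and 6.97 CPM, which did not. On the log2 scale the classes differed by 1.30 ± 1.0 in the cortex (edgeR, adjusted p 0.402), 2.88 ± 1.06 in the hippocampus (0.138) and 2.09 ± 0.73 in the average (0.0406). The averaged call was lost in 8 of 20 alternatives, among them without cortex CD51+ replicate 1 or 2, cortex CD51- replicate 2, hippocampus CD51+ replicate 2 or 3 and hippocampus CD51- replicate 2 or 3.

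Msmo1 (ENSMUSG00000031604.10, chr8:64718139-64733792, minus strand), a methylsterol oxidase, starts the removal of the paired methyl groups at carbon 4. It was at 136, 151 and 308 CPM in cortex CD51+ and 2.03, 27.9 and 13.7 CPM in cortex CD51-. For hippocampus CD51+ the level was 115, 75.4 and 79.6 CPM, compared with 17.2, 38.4 and 50.3 CPM for CD51-. The 6 CD51+ libraries all lay above the 6 CD51- libraries. The log2 difference was 3.77 ± 0.94 in the cortex (edgeR, adjusted p 0.0119), 1.35 ± 0.86 in the hippocampus (0.446) and 2.56 ± 0.63 in the average (0.00618). The cortex call was lost without cortex CD51+ replicate 3 (adjusted p 0.0693).

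Nsdhl (ENSMUSG00000031349.4, chrX:72918557-72958514, plus strand) is the dehydrogenase that acts after Msmo1 on the same methyl groups. It was at 41.8, 25.4 and 71.8 CPM in cortex CD51+ and at 0 in all 3 cortex CD51- libraries. Hippocampus CD51+ libraries held 20.4, 25 and 1.51 CPM, against 19.2, 27.3 and 34.2 CPM in hippocampus CD51-. The gene thus separated the classes in the cortex and not in the hippocampus. The 801 counts of cortex CD51+ against 0 gave a level at least 387-fold higher over the floor of 3 counts (edgeR, adjusted p 0.00175). The hippocampus log2 difference was -0.78 ± 1.34 (0.841), and the average passed at 0.00342. The difference between the 2 regions was not called, with an adjusted p of 0.139 for the interaction, although DESeq2 called it, as did edgeR with no filter or without cortex CD51- replicate 3.

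Sc5d, the desaturase near the end of the route, was at 169, 164 and 87.1 CPM in cortex CD51+ and 4.05, 15.2 and 41.9 CPM in cortex CD51-, without overlap. Its log2 difference there was 2.78 ± 0.93, with an adjusted p from edgeR of 0.0544, and it was 1.69 ± 0.63 in the average (0.0574). DESeq2, limma-voom and edgeR with upper-quartile factors called Sc5d higher in both the cortex and the average. In the hippocampus the Sc5d levels of the classes overlapped, with a log2 difference of 0.59 ± 0.88 (edgeR, adjusted p 0.808). Dhcr7, a reductase of the last steps, had its highest level in a CD51- library of the cortex, 109 CPM, where the other two held 3.0 and 7.44 CPM. Its adjusted p was 0.844 in the cortex and 0.522 in the hippocampus. Hsd17b7, the ketosteroid reductase that follows Nsdhl, was at 33.1, 23.2 and 6.7 CPM in cortex CD51+ and 2.7, 0 and 0.438 CPM in cortex CD51-. These did not overlap, and the adjusted p was 0.166. The hippocampus levels of Hsd17b7 overlapped, with means of 6.36 CPM in CD51+ and 8.46 CPM in CD51- (edgeR, adjusted p 0.952).

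Tm7sf2 and Lbr encode a pair of sterol reductases that can carry out the same step, and Lbr also anchors the nuclear lamina. Tm7sf2 was at 4.87, 41.9 and 4.06 CPM in cortex CD51+ and at 0, 0 and 0.146 CPM in cortex CD51-, a ratio of 545 (95% counting interval 97.1 to 21600) with an adjusted p from edgeR of 0.0586. The hippocampus levels were 0.688, 0 and 0.838 CPM for CD51+ against 0.164, 8.73 and 10.5 CPM for CD51- (adjusted p 0.431). Its exons overlap those of Vps51 on the same strand over 12.1% of their bases. Lbr was at 0 in all 3 hippocampus CD51+ libraries and at 7.06, 6.69 and 6.88 CPM in hippocampus CD51-, which made it at least 40.8-fold lower in CD51+ (adjusted p 0.105). In the cortex it was at 0.84, 10.8 and 7.91 CPM in CD51+ against 1.43, 5.39 and 0.584 CPM in CD51-, with overlap. Ebp, the sterol isomerase, had 0 counts in cortex CD51+ and at most 7.78 CPM anywhere, and it was not called (adjusted p 0.0961 in the cortex and 0.286 in the hippocampus).

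Of the 5 genes that control the route, edgeR called Srebf1 higher in the cortex and in the average, where 5.05% and 8.87% of all genes tested were. It did not call the other 4. Srebf1 (ENSMUSG00000020538.15, chr11:60199089-60222581, minus strand) encodes the SREBP that is best known for fatty acid synthesis. It was at 77.9, 121 and 47.3 CPM in cortex CD51+ and 6.08, 0.24 and 9.19 CPM in cortex CD51-. Hippocampus values came to 35.8, 64.9 and 30.2 CPM for CD51+ and 10.8, 5.76 and 8.06 CPM for CD51-. Every CD51+ library was above every CD51- library. Between the classes the log2 difference was 3.98 ± 1.28 in the cortex (edgeR, adjusted p 0.046), 2.41 ± 1.2 in the hippocampus (0.278) and 3.19 ± 0.87 in the average (0.012). The cortex call was lost in 10 of 15 alternatives, among them the fits without any 1 of the 6 cortex libraries (adjusted p 0.0531 to 0.138), and the averaged call in none of 20.

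Srebf2, the SREBP best known for sterol genes, was at 209, 86.8 and 77.7 CPM in cortex CD51+ and 5.57, 79.3 and 14.4 CPM in cortex CD51-. The classes overlapped through cortex CD51- replicate 2. From the hippocampus, CD51+ cells gave 149, 85.5 and 136 CPM, while CD51- cells gave 18, 50.8 and 58.2 CPM, without overlap. On the log2 scale the classes differed by 1.91 ± 0.92 in the cortex (edgeR, adjusted p 0.156), 1.55 ± 0.91 in the hippocampus (0.393) and 1.73 ± 0.65 in the average (0.057). Srebf2 was called higher in the average by DESeq2, by limma-voom and by edgeR with upper-quartile factors. Scap, the escort, was at 22.7, 61.3 and 73.9 CPM in cortex CD51+ against 11.9, 13.4 and 21.6 CPM in cortex CD51-, and at 3.44, 0.134 and 14.4 CPM in hippocampus CD51+ against 16.8, 9.75 and 6.61 CPM in CD51-. The classes did not overlap in the cortex and did in the hippocampus, and the adjusted p was 0.429 and 0.825. Exons of Scap overlap those of 5830462I19Rik over 13.2% of their bases.

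Insig1, a SREBP target that retains the SCAP complex, was at 89.8, 54.5 and 169 CPM in cortex CD51+ and 65.7, 13.8 and 8.46 CPM in cortex CD51-. For hippocampus CD51+ the level was 81.7, 71.2 and 49.4 CPM, compared with 102, 13.2 and 40.0 CPM for CD51-. Both pairs of classes overlapped, and the adjusted p from edgeR was 0.202 and 0.899. Insig2, its relative, was low, at 2.52, 0.513 and 13.4 CPM in cortex CD51+ and 0.506, 0 and 0 CPM in cortex CD51-, just without overlap. Its hippocampus levels of 1.15, 2.41 and 2.18 CPM in CD51+ lay among those of CD51-, 10.9, 3.44 and 1.63 CPM, or below them, and its adjusted p was 0.171 and 0.8. In the cortex DESeq2 called Insig2 higher in CD51+. Stard4, which carries sterol between membranes, reached 216 CPM in cortex CD51- replicate 2 and 0.203 to 17.3 CPM in the other 11 libraries. Its log2 difference in the cortex was -4.73 ± 1.86 (edgeR, adjusted p 0.0884), and without cortex CD51- replicate 3 it was called lower in CD51+.

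**Figure D5:**
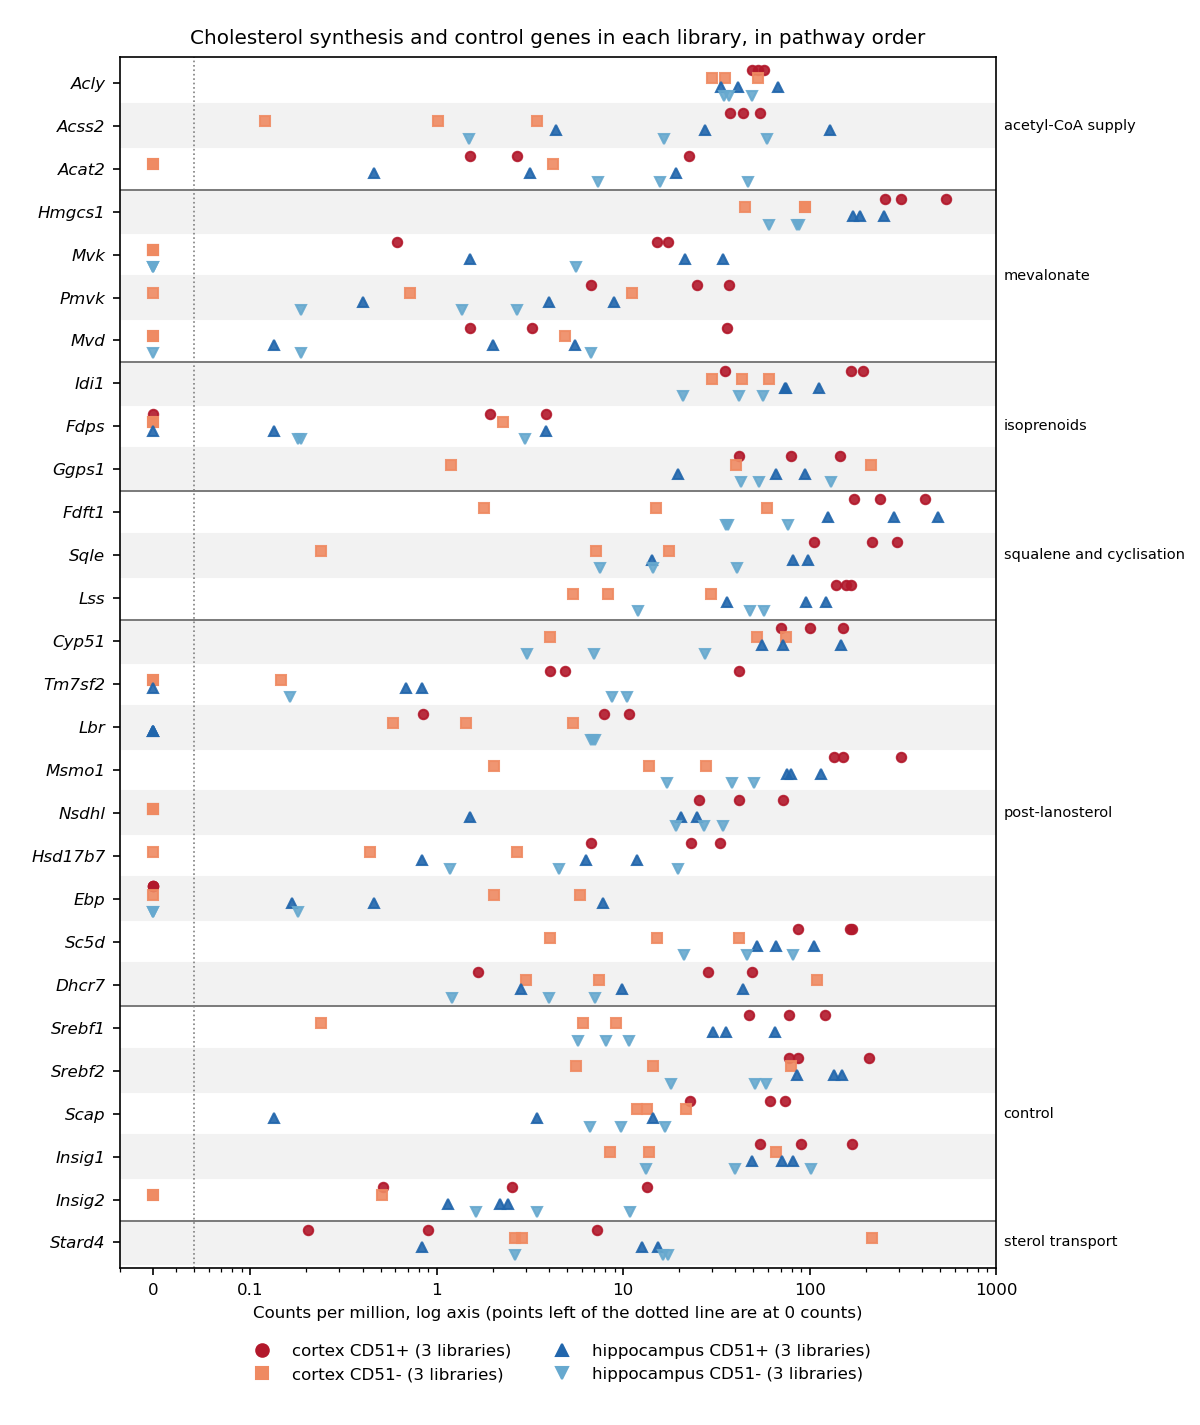
Level of each of the 28 genes in each of the 12 libraries, in CPM on a log axis, ordered along the route and coloured by group. The cortex CD51+ points of the 3 squalene genes, Hmgcs1 and Msmo1 lie above all cortex CD51- points.

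Without regard to the test, 14 of the 28 genes had all 3 cortex CD51+ libraries above all 3 cortex CD51- libraries and 0 the reverse, where 15.1% and 16.6% of all genes tested did so. In the hippocampus 7 genes lay wholly higher (Hmgcs1, Idi1, Fdft1, Cyp51, Msmo1, Srebf1 and Srebf2) and 1 wholly lower (Lbr), against 10.5% and 16.7% of all genes tested.

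Compared per kilobase of exon, so that genes can be set against one another, Hmgcs1 and Fdft1 were the most abundant of the 28 in cortex CD51+, at 79.9 ± 32.6 and 67.3 ± 30.7 CPM per kilobase (SD, n = 3). Idi1 at 37.5 ± 24.1 and Sqle at 37.0 ± 17 came next, and neighbours in this order did not differ beyond their spread. The length used covers all annotated exons of a gene, such as 10787 bases for Lss and 10163 for Acss2. Where the transcripts present are shorter than that, the level is understated, so the order between genes is rough. In hippocampus CD51+ the order began with Fdft1 at 72.7 ± 44.1, Hmgcs1 at 44.1 ± 9.37 and Idi1 at 24.7 ± 6.14 CPM per kilobase. Ggps1 at 18.1 ± 24.0, Hmgcs1 at 17 ± 6.17 and Stard4 at 13.2 ± 22.1 led in cortex CD51-, and Hmgcs1 at 16.9 ± 3.3, Insig1 at 16.7 ± 14.8 and Ggps1 at 16 ± 10.1 in hippocampus CD51-. By CPM, a different gene led each cortex CD51- library: Dhcr7 with 109, Stard4 with 216 and Ggps1 with 214. In the 6 CD51+ libraries the leader was Hmgcs1 or Fdft1, and these also led hippocampus CD51- replicate 2 (Hmgcs1, 87.3) and replicate 3 (Fdft1, 76.9), while Ggps1 led replicate 1. Between 6 and 7 of the 28 genes had no count in each cortex CD51- library, and 1 or 2 in each library of the other groups. Smaller exon overlaps than those named above touched Lbr (Dnah14, 9.24% of its exon bases), Idi1 (Gm48574, 9.215%), Ggps1 (Arid4b, 5.44%), Acss2 (Gss, 3.89%), Cyp51 (Akap9, 3.76%), Lss (4930483K19Rik, 3.53%) and Srebf1 (Rai1, 1.935%).

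Between regions, 0 of the 28 genes were called in CD51+ cells by edgeR, with 0.0396% of all genes tested called. At an unadjusted p under 0.05 there were 1 higher and 3 lower in the hippocampus, beside 11.8% of all genes in either direction. DESeq2 called 1 (Lbr, beside 3.89% of all genes) and limma-voom 0 (0.0159%). The median log2 difference, hippocampus minus cortex, was -0.74 against 0.00 over all genes tested, and 23 of 28 lay below 0. In this comparison 8 genes had all hippocampus CD51+ libraries below all cortex ones, among them Hmgcs1, Sqle, Lss, Msmo1 and Nsdhl, and 1, Ebp, had them above. Over all genes tested these shares were 5.97% and 7.54%. In CD51- cells again 0 of 28 passed, where 0.0% of all genes tested did. At an unadjusted p under 0.05 there were 4, all higher in the hippocampus, beside 13.2% of all genes in either direction. All genes tested leaned the same way at that limit, with 1301 higher and 363 lower. DESeq2 called 3 (Acss2, Nsdhl and Tm7sf2, beside 5.45% of all genes) and limma-voom 1 (Nsdhl, beside 0.864%). Nsdhl was at least 240-fold higher in hippocampus CD51- than in cortex CD51- over the floor of 3 counts, with an adjusted p from edgeR of 0.0851. These comparisons share libraries with the CD51 comparisons.

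Whether the CD51 difference itself changed between regions was tested by the interaction. It gave 0 calls among the 28 genes with edgeR and 0.0% over all genes tested. At an unadjusted p under 0.05 there were 1 higher and 3 lower, beside 12.6% of all genes in either direction, and these were Ebp (p 0.00446, adjusted 0.194), Nsdhl (6.23e-05, adjusted 0.139), Tm7sf2 (0.00312, adjusted 0.173) and Lbr (0.00736, adjusted 0.22). Each of the 4 had a group at 0 counts or nearly so, and no fold is given for them. DESeq2 called 3 (Lbr, Nsdhl and Tm7sf2, beside 4.14% of all genes) and limma-voom 0. Among the other cortex calls, the interaction values were -3.00 ± 1.49 for Sqle (adjusted p 0.413), -2.42 ± 1.21 for Msmo1 (0.416) and -2.29 ± 1.23 for Lss (0.447), hippocampus minus cortex. The median was -1.88, against -0.23 over all genes tested. By edgeR, the cortex calls were thus not shown to differ from the hippocampus values, except that Nsdhl passed with no filter or without cortex CD51- replicate 3.

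Neighbouring pathways were read from lists put together with earlier results known. Of 10 genes of fatty acid synthesis under SREBP control, 6 were higher in CD51+ in the average and 0 lower, 4 in the cortex and 1 in the hippocampus, beside 8.87%, 5.05% and 0.618% of all genes called higher. Scd2, the main brain desaturase that makes monounsaturated fatty acids, was at 1670.0 ± 209 CPM in cortex CD51+, 196 ± 124 in cortex CD51-, 1440.0 ± 592 in hippocampus CD51+ and 335 ± 83.7 in hippocampus CD51- (SD, n = 3). Its averaged log2 difference was 2.59 ± 0.39 (edgeR, adjusted p 5.08e-05). Fads1, a desaturase of polyunsaturated fatty acids, differed by 2.46 ± 0.46 (0.000629) and Elovl5, an elongase, by 2.73 ± 0.55 (0.00113). The other 3 called genes had adjusted p of 0.0185, 0.0317 and 0.0322. The median of the list was 2.41, against -0.14 over all genes tested. The summed list held 3476 ± 289, 775.3 ± 357, 3029 ± 1130 and 863.8 ± 124 CPM in cortex CD51+, cortex CD51-, hippocampus CD51+ and hippocampus CD51-.

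Of 15 genes of sterol oxidation, esterification, storage and LXR sensing, 12 were tested and 3 were higher and 2 lower in the average, beside 8.87% and 13.9% of all genes. The higher ones were Cyp7b1, an oxysterol hydroxylase (edgeR, adjusted p 0.00204, at least 515-fold in the cortex, where CD51- had 0 counts, but 2.15 to 47.0 CPM against 3.9 to 11.6 CPM in the hippocampus, adjusted p 0.676), Soat1, which esterifies cholesterol (log2 difference 2.00 ± 0.59, adjusted p 0.0187), and Cyp46a1, which makes the oxysterol that leaves the brain (4.76 ± 1.47, 0.0226). The lower ones were Mylip, an LXR-induced ubiquitin ligase (-5.74 ± 1.23, 0.00201), and Abcg1, a sterol exporter (-4.10 ± 1.41, 0.0387). By region, edgeR called Soat1 in the cortex (adjusted p 0.0237) and not in the hippocampus (0.661). Mylip was called in the hippocampus (0.048) and not in the cortex (0.0527). In neither region were Cyp46a1 (0.209 in the cortex, 0.14 in the hippocampus) and Abcg1 (0.27 and 0.177) called. Cyp46a1 and Abcg1 are named to complete the count, after their values were seen. The median of this list was -0.02. Of 11 tested genes of prenylation, dolichol and ubiquinone synthesis, edgeR called 0 in the average, beside 8.87% higher and 13.9% lower over all genes. There 0 had an unadjusted p under 0.05, beside 15.1% and 20.1% of all genes. In the cortex 1 gene of this list was higher at that limit, beside 14.8% of all genes. With so few genes, these counts do not set the list apart from all genes.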

How the data were processed

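Sorted CD51+ and CD51- cells of cortex and hippocampus were sequenced as 12 paired-end RNA libraries, 3 a group by the titles. The deposited values are raw counts of read pairs per gene, made with featureCounts 2.0.4 from primary alignments to GENCODE vM25 exons without regard to strand, with pairs across chromosomes left out, per the file headers. STAR, mm10 and DESeq2 1.40.2 are named in the submitters' processing notes. Genes were kept by filterByExpr (minimum count 10, minimum total 15), scaled by TMM and tested with edgeR 4.0.16 in R 4.3.3 by quasi-likelihood F tests, all 4 groups in 1 fit, 6 contrasts, Benjamini-Hochberg adjusted over 12613 genes and called under 0.05. SE is the log2 fold change divided by the root of F. CPM use TMM library sizes. Ratios over 0 counts are bounds at 3 counts a group, and counting intervals are exact at 95%, for counting error only. The fit was tested on simulated data.

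Alternatives were RLE and upper-quartile factors, no filter, a filter of 1 CPM in 3 libraries, DESeq2 1.42.0, limma-voom (limma 3.58.1), only the libraries compared, a replicate block, mitochondrial genes left out, and each library left out. The 28 genes, the pathway lists and the marker lists were chosen with earlier results of these data known. Values in every library are given for called genes and for Srebf1, Srebf2, Scap, Insig1 and Insig2, ranges or examples for the others, and for other lists the 3 genes of smallest p in the average at most, except where a count was completed by name. The other pathway lists drawn up for this work are not reported here. Promoters were taken from RefSeq on GRCm38.p6 by symbol.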

Additional observations from a re-analysis of the deposited data

How the results depend on the processing

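None of the called fold changes of the 28 genes changed sign under the alternatives run on them. In the cortex, the 7 genes called higher became 13 with DESeq2 and 12 with limma-voom, and 3 to 6 when 1 library was left out, with 3 without cortex CD51+ replicate 3 and 4 without cortex CD51+ replicate 1. In the fits with 1 cortex library left out, 372 to 654 of all genes tested were called higher, against 637 with all libraries. The 0 called lower became 1 (Stard4) with no filter and 0 to 1 with 1 library left out. In the hippocampus, the 0 called higher became 2 with DESeq2, 1 with limma-voom and 1 (Fdft1) with only the libraries compared, and the 0 called lower became 1 (Lbr) with DESeq2 and 1 with limma-voom. Between regions in CD51+ cells DESeq2 called 1. In CD51- cells no filter gave 1, DESeq2 3, limma-voom 1 and leaving out 1 library 0 to 1. For the interaction no filter gave 1, DESeq2 3 and leaving out 1 library 0 to 1 (Nsdhl, without cortex CD51- replicate 3). The averaged count higher was 8 to 12 over all alternatives. Over all genes tested, DESeq2 called 1472 higher and 1747 lower in the cortex, where edgeR called 637 and 791. The causes were not tested.

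The averaged calls of Fdft1, Hmgcs1, Lss, Msmo1, Nsdhl, Sqle and Srebf1 held in all 20 alternatives, and the cortex calls of Nsdhl and Sqle in all 15. The averaged call of Nsdhl came from the cortex, since its hippocampus difference lay below 0. The cortex call of Srebf1 was lost in 10 of 15, of Hmgcs1 in 6, of Lss in 4 and of Fdft1 and Msmo1 in 1 each. Under upper-quartile factors the log2 fold change of a gene rose by a median of 0.12 in the cortex, 0.22 in the hippocampus and 0.17 in the average.

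Libraries of the same number in different groups did not deviate together (correlations -0.0478 to 0.0272 over 18 pairs, against -0.0439 to 0.0604 for 36 pairs of different number), so the number is not taken as a pairing. With the replicate block, 7 genes were called higher in the cortex, 6 of them shared (Srebf1 was lost and Acss2 gained), and 9 in the average (Mvk was lost, adjusted p 0.071).

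A common dispersion of 1.641 limits what 3 libraries a group can show, and genes under about 10 CPM, such as Fdps, Ebp, Lbr and Insig2, rest on few counts.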

Other observations

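Evenness within groups was described with simple counts. With limits chosen after seeing the data, gene and group pairs were counted in which 1 library reached at least 20 CPM while another of the same group was under 1 CPM. Of 68 pairs of the 28 genes that reached 20 CPM, 0 had a library under 1 CPM, against 18.5% over all genes tested. The 0 rests on these limits and does not mean even levels. Ggps1 ran from 1.2 to 214 CPM and Fdft1 from 1.8 to 59.4 CPM in cortex CD51-, and Acss2 from 1.49 to 59.0 CPM in hippocampus CD51-. Sqle, at 0.24 to 17.6 CPM in cortex CD51-, did not reach 20 CPM. The shares were not matched for level, and at 50 CPM they were 0 of 50 against 7.62%. At 10 CPM the count was 10 of 83 (12.0%), against 27.4%, and in hippocampus CD51+ alone 19.0% against 23.7%. No test was run on these shares.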
